A study of Mus musculus with 6 samples.

Results

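The 38 genes described here encode proteins that drive the cell cycle or copy DNA, and they were chosen by name: 6 cyclins and kinases of the G1 phase, 18 replication genes and 14 mitotic genes. All 38 were among the 14861 genes of the table, and 36 of them passed the filter on low values and were among the 12993 genes tested. RNA with poly(A) tails was sequenced from the inguinal white fat of mice, a depot under the skin of the groin, in 6 libraries that form 2 groups of 3. The AdIGF1RKO group came from a cross of floxed Igf1r mice (a B6;129 stock) with Adipoq-Cre mice (a B6;FVB stock), in which the adiponectin promoter drives Cre recombinase in adipocytes. Igf1r encodes the receptor of insulin-like growth factor 1. The Flox group consisted of floxed Igf1r littermates, for which the labels name no Cre. Both groups received a normal chow for 24 weeks, in which fat supplied 10% of the calories, and food was withdrawn the night before dissection. Neither age nor sex is given in the sources used here, and the labels do not say whether a library holds the RNA of 1 mouse.

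A dividing cell passes a checkpoint in G1, copies its DNA in S phase and separates the copies in mitosis. D-type cyclins bind Cdk4 and Cdk6 and release the E2F transcription factors from the retinoblastoma protein, and E2F factors then drive many replication genes. Mitotic genes peak later, and many of them are held down in resting cells by the DREAM repressor complex, which binds a promoter element called CHR, and are activated through CCAAT boxes bound by the factor NF-Y. Mature adipocytes are largely post-mitotic, so dividing cells in adult fat are mostly progenitors, endothelial cells and immune cells.

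Those 3 promoter elements were looked up in the members, since they describe the 2 classes by sequence and not by any value in these libraries. RefSeq promoter windows of assembly GRCm38.p6, each of 300 bases from 250 before to 50 after a gene's start, were at hand for 31 of the 38 members, with 33 windows in all. The entries missing were those of Aurkb, Ccna2, Ccnd1, Ccnd2, Gmnn, Mcm4 and Rfc2. Matches were counted on both strands for CHR (TTTGAA or TTCGAA), for CCAAT, and for E2F (TTTCCCGC, TTTCGCGC, TTTGCCGC or TTTGGCGC), and overlapping E2F matches on opposite strands were counted separately. A CHR match was present in 10 of 12 mitotic windows (83.3%), against 18.8% of replication windows and 14.2% of the 14641 windows of genes in the deposited table (19.2% of all 32851 windows). CCAAT was present in 91.7% of mitotic, 68.8% of replication and 36.9% of table windows (37.4% of all windows). An E2F match was present in 37.5% of replication windows, 8.33% of mitotic windows and 3.61% of table windows (2.26% of all windows). The mitotic windows with no CHR match were those of Birc5 and Ccnb1. A match is a description of the letters and was not tested for binding.

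The windows of 4 members are shown because the values below turn on them or on genes of their class. Capitals mark every match to the 3 motifs, and each window is written 5′ to 3′ on the gene's strand, which is the minus strand for all 4. Ccnb2 (cyclin B2, chr9:70421505-70421804) and Cdk1 (the mitotic kinase, chr10:69352863-69353162) carry CHR and CCAAT matches, and Cdk1 also has 1 E2F match. Mcm6 (a subunit of the replicative helicase, chr1:128359656-128359955) carries E2F and CCAAT matches. Rfc4 (a subunit of the clamp loader, chr16:23127681-23127980) has none of these letters in its window. All coordinates are of GRCm38.p6, while the deposited table was made on GRCm39, per the submitters' processing notes.
Ccnb2: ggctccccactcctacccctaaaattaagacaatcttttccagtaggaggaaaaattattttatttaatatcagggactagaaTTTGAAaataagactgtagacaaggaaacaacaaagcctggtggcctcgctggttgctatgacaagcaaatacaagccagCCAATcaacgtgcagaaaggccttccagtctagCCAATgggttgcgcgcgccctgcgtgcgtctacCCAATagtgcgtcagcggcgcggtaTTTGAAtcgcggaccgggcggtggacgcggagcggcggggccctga
Cdk1: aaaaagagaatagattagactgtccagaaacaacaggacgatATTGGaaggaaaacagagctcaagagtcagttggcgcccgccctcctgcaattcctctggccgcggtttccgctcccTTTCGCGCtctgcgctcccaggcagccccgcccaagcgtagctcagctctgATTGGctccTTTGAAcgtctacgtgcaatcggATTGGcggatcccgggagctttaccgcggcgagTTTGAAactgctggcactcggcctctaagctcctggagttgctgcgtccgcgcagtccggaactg
Mcm6: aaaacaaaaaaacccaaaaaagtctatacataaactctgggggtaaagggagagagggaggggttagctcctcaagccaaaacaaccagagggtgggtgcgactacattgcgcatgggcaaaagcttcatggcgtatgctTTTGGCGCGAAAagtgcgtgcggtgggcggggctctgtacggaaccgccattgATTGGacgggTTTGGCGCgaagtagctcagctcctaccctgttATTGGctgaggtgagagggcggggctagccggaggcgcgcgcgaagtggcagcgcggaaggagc
Rfc4: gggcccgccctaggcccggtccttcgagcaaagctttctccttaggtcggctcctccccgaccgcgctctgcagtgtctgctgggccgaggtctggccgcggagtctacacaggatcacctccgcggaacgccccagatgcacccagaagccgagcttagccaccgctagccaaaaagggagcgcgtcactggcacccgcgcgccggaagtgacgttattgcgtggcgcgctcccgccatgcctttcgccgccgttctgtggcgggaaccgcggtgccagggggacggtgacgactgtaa

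**Figure D1:**
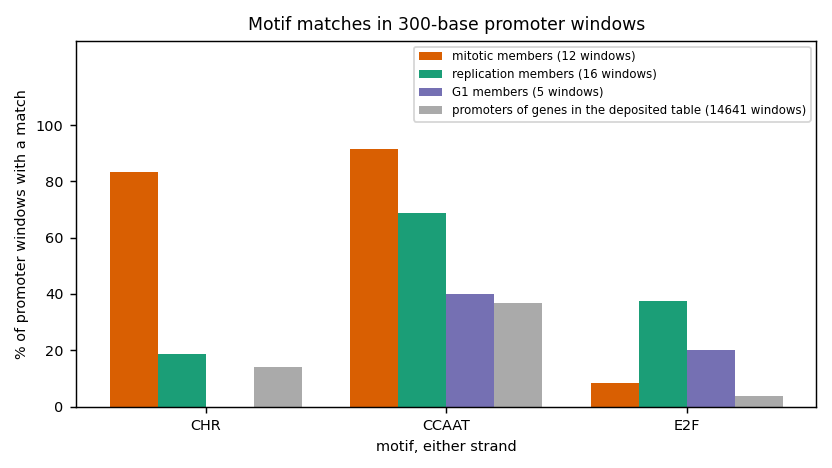
Share of 300-base promoter windows (y axis, percent) with at least 1 match to each motif on either strand (x axis), for mitotic, replication and G1 members and for all windows of genes in the deposited table. The mitotic bar stands at 83.3% for CHR against 14.2% in the table, and the replication bar at 37.5% for E2F against 3.61%.

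Values are given as scaled CPM, reads in CPM of a library of geometric mean size after median-ratio scaling. They are not divided by gene length, so levels are compared between libraries and never between genes. Between 60617147 and 70695527 reads per library were recovered from the table. The adipocyte marker Adipoq had 3348 to 4927 scaled CPM over the 6 libraries. Skeletal muscle markers, of which 18 of 19 were in the table (Myh7 was not), summed to 172300 in Flox 3 and 50498 in AdIGF1RKO 3, and to 530 to 8977 in the other 4 libraries. The deleted gene Igf1r had 6.44, 6.47 and 5.86 in Flox 1 to 3 and 6.11, 5.27 and 4.85 in AdIGF1RKO 1 to 3. The groups overlapped for Igf1r, and its log2 difference of -0.18 (standard error 0.12) did not pass (limma adjusted p = 0.998). The tissue also holds cells without Cre, and their part in the Igf1r values was not tested. In bulk tissue, fewer cells of a type and less RNA per cell cannot be told apart.

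Between AdIGF1RKO and Flox, 0 of the 36 tested members passed limma at an adjusted p under 0.05, as did 0% of all tested genes, and the adjusted p of every member was 0.998. The count was also 0 with edgeR's quasi-likelihood test (0% of all tested genes) and with DESeq2 (0.178% of the genes with an adjusted p, 23 genes). At an unadjusted p under 0.05, limma gave 2 members higher in AdIGF1RKO, Rfc4 and Ccnb2, against 1.83% of all tested genes, and 0 lower, against 1.13%. edgeR and DESeq2 each gave 3 members higher at that level, adding Bub1b (1.80% and 2.27% of all genes), and 0 lower (1.11% and 1.55%). Over all genes, limma gave 385 at an unadjusted p under 0.05, and 582 when the replicate number was added as a block. The groups did not overlap for 3 tested members that were higher in AdIGF1RKO, Rfc4, Ccnb2 and Ccnd2, against 4.41% of all tested genes. Rfc1 was the member without overlap in the other direction, against 3.86%.

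**Figure D2:**
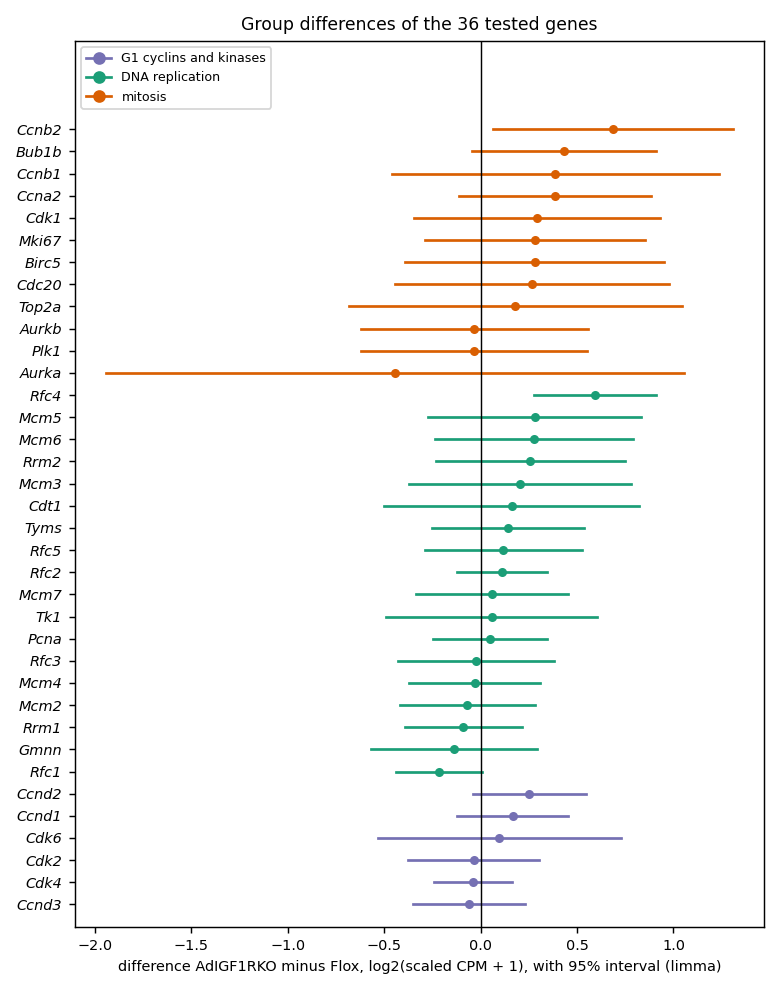
Difference between group means for the 36 tested members (x axis, log2(scaled CPM + 1), positive where AdIGF1RKO is higher), with the 95% interval of the limma fit, coloured by role. The intervals of Rfc4 (0.28 to 0.91) and Ccnb2 (0.07 to 1.31) lie above 0, no member passed after adjustment over all genes, and the widest interval is that of Aurka.

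Among the G1 cyclins and kinases, which carry growth signals to the cell cycle, the groups were close. Ccnd2, a D-type cyclin, had 35.0, 46.9 and 40.9 scaled CPM in Flox and 48.7, 47.6 and 49.6 in AdIGF1RKO. All 3 AdIGF1RKO libraries lay just above the highest Flox library, with a log2 difference of 0.25 (standard error 0.12, limma adjusted p = 0.998) that did not pass. Ccnd1, the D-type cyclin that is a textbook target of β-catenin, had 16.7, 20.1 and 16.1 in Flox and 18.2, 20.2 and 21.2 in AdIGF1RKO, and the groups overlapped. Its log2 difference was 0.17, with a 95% interval from -0.12 to 0.46. Ccnd3, the remaining D-type cyclin, had 82.1, 92.0 and 71.5 in Flox and 83.5, 79.7 and 71.8 in AdIGF1RKO, with the lowest library in each group being number 3. Cdk4, the partner of these cyclins, was the steadiest of the 6 and lay between 50.3 and 56.3 in every library, with a log2 difference of -0.04 and an interval from -0.24 to 0.16. Cdk6, the other partner, had 3.24, 1.43 and 1.37 in Flox and 2.17, 2.46 and 1.72 in AdIGF1RKO, so Flox held both its highest and its lowest library. Cdk2, which acts at the entry into S phase, lay between 20.9 and 29.8 with overlapping groups. Of the 6 genes, 3 had a positive difference, with a median of 0.03 against -0.02 for all tested genes, of which 44.8% were positive.

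Of the replication genes, the clamp loader gene Rfc4 had the smallest p of all members. The clamp loader, replication factor C, opens the ring-shaped clamp protein PCNA and places it on DNA. Rfc4 had 9.45, 9.44 and 11.9 scaled CPM in Flox and 14.4, 17.3 and 16.1 in AdIGF1RKO, with means of 10.3 ± 1.41 and 15.9 ± 1.48 (SD, n = 3 each). Every AdIGF1RKO library lay above every Flox library, at a ratio of means of 1.55, and each value rests on 574 to 1226 reads. Rfc4 differed by 0.59 on the log2 scale (standard error 0.13), at an unadjusted limma p of 0.00341. After adjustment over all genes it passed neither limma (adjusted p = 0.998) nor edgeR (adjusted p = 0.981) nor DESeq2 (adjusted p = 0.0976). Leaving out each library in turn gave differences from 0.53 to 0.70, and without both muscle-rich libraries the difference was 0.69.

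The place of Rfc4 in the genome bears on how its value can be read. In the RefSeq order of genes (GRCm38.p6), Rfc4 is the immediate neighbour of Adipoq, whose promoter drives the Cre transgene, and its other end overlaps the gene Eif4a2. That transgene is known to be a bacterial artificial chromosome, a large genomic clone around Adipoq. Which neighbouring genes that clone carries was not analysed here. Because the labels name Cre in AdIGF1RKO only, carriage of the transgene and loss of Igf1r cannot be told apart. Eif4a2, a translation initiation factor, had 761, 801 and 905 in Flox and 991, 799 and 1054 in AdIGF1RKO, with overlapping groups and a log2 difference of 0.20 (standard error 0.14, adjusted p = 0.998). For Eif4a2, AdIGF1RKO 1 and 3 lay above every Flox library, and AdIGF1RKO 2, the library highest in Rfc4, lay within the Flox range. Adipoq had a log2 difference of -0.11, Kng2 of -0.01, St6gal1 of 0.06 and Masp1 of -0.06, while Kng1, below the filter, had 0.0570 to 1.43 scaled CPM. The strand setting of the authors' counting was not stated, so the split of reads between Rfc4 and Eif4a2 is uncertain.

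The other 4 clamp loader subunits had differences from -0.22 to 0.12, against 0.59 for Rfc4, and these were not tested against each other. Rfc1, the large subunit, had 33.1, 32.5 and 35.97 in Flox and 30.9, 27.3 and 28.8 in AdIGF1RKO. Every AdIGF1RKO value of Rfc1 lay below every Flox value, with a log2 difference of -0.22 (standard error 0.09, unadjusted p = 0.0549). Rfc2, Rfc3 and Rfc5 had differences of 0.11, -0.02 and 0.12 with overlapping groups. Pcna, the clamp itself, had 87.9, 80.0 and 70.4 in Flox and 75.1, 92.3 and 79.1 in AdIGF1RKO. Its groups overlapped, and its log2 difference was 0.05 with an interval from -0.25 to 0.35.

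The Mcm2 to Mcm7 genes encode the 6 subunits of the replicative helicase, which is loaded on DNA before S phase. Mcm6 had 11.8, 9.38 and 7.31 in Flox and 11.8, 14.1 and 9.14 in AdIGF1RKO, and Mcm5 had 4.15, 3.66 and 2.20 in Flox and 4.27, 5.06 and 3.31 in AdIGF1RKO. In both genes AdIGF1RKO 2 was the highest library and Flox 3 the lowest, and the groups overlapped. Mcm3 lay between 10.0 and 12.3 in 5 libraries and at 6.20 in Flox 3, and Mcm7 between 33.1, again in Flox 3, and 45.9. Mcm2 lay between 3.32 and 4.56 and Mcm4 between 6.76 and 9.14, with overlapping groups. The log2 differences of the 6 subunits ran from -0.07 for Mcm2 to 0.28 for Mcm5. Cdt1 lay between 0.849 in Flox 3 and 2.77 in Flox 2, and Gmnn between 5.58 in AdIGF1RKO 1 and 9.47 in Flox 3. Cdt1, which loads the helicase, and Gmnn, which encodes the Cdt1 inhibitor geminin, had differences of 0.16 and -0.14 with overlapping groups.

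The members Rrm1, Rrm2, Tyms and Tk1 supply the building blocks of DNA, as ribonucleotide reductase, thymidylate synthase and thymidine kinase. Rrm2, the subunit that is made mainly in dividing cells, had 2.56, 2.25 and 1.99 in Flox and 2.97, 3.89 and 2.05 in AdIGF1RKO. AdIGF1RKO 2 was again the highest, and the groups overlapped. Rrm1, the larger subunit, had a difference of -0.09, and Tyms and Tk1 had 0.14 and 0.06. Tk1 was highest in the libraries richest in muscle RNA, at 7.31 in Flox 3 and 6.70 in AdIGF1RKO 3 against 3.94 to 5.44 in the others. The part of muscle RNA in the Tk1 values was not tested. Over all 18 replication genes, 12 had a positive difference and the median was 0.09. With the values as deposited 6 of the 18 were positive and the median was -0.064, against -0.17 for all tested genes. With libraries scaled to equal sums 16 were positive with a median of 0.20, against 0.09 for all tested genes.

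The mitotic genes were low in every library, resting on 17 to 719 reads per gene and library, and 2 of the 14, Bub1 and Kif11, had means below the filter of 1 scaled CPM. Ccnb1 passed the filter through AdIGF1RKO, with means of 0.854 in Flox and 1.58 in AdIGF1RKO. Ccnb2, the B-type cyclin that activates Cdk1, had 1.54, 1.497 and 0.642 in Flox and 2.18, 3.61 and 1.97 in AdIGF1RKO. The groups did not overlap, at means of 1.23 ± 0.506 and 2.58 ± 0.890 (SD, n = 3 each) and a ratio of 2.11. Ccnb2 differed by 0.69 on the log2 scale (standard error 0.26), at an unadjusted limma p of 0.0350 and an adjusted p of 0.998. Without Flox 3 it was 0.49 (unadjusted p = 0.0868), and without AdIGF1RKO 2 it was 0.49 (unadjusted p = 0.107). On the scale with a pseudocount of 0.25, which shrinks low genes less, it was 0.97.

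Bub1b, a gene of the spindle checkpoint, had 1.57, 1.68 and 1.31 in Flox and 2.75, 2.94 and 1.64 in AdIGF1RKO. AdIGF1RKO 1 and 2 were above all Flox libraries and AdIGF1RKO 3 was within the Flox range, with a log2 difference of 0.43 (standard error 0.20). Ccna2, the cyclin of S phase and early mitosis, had 2.27, 2.22 and 1.82 in Flox and 2.92, 4.26 and 2.24 in AdIGF1RKO, again with number 3 of AdIGF1RKO inside the Flox range. Mki67, which encodes the proliferation marker Ki-67, had 1.41, 1.18 and 1.04 in Flox and 1.36, 2.73 and 1.198 in AdIGF1RKO. For Mki67 only AdIGF1RKO 2 lay above the Flox range, and the interval of the log2 difference ran from -0.29 to 0.85. Top2a, the topoisomerase that untangles chromosomes, had 4.01, 4.38 and 1.596 in Flox and 2.76, 5.81 and 2.96 in AdIGF1RKO. Ccnb1, the main B-type cyclin, had 0.735, 1.23 and 0.601 in Flox and 1.37, 2.84 and 0.520 in AdIGF1RKO, so AdIGF1RKO held both the highest and the lowest library. Cdk1, described here for its sequence above, had 5.51, 6.73 and 4.72 in Flox and 7.37, 10.2 and 4.65 in AdIGF1RKO.

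**Figure D3:**
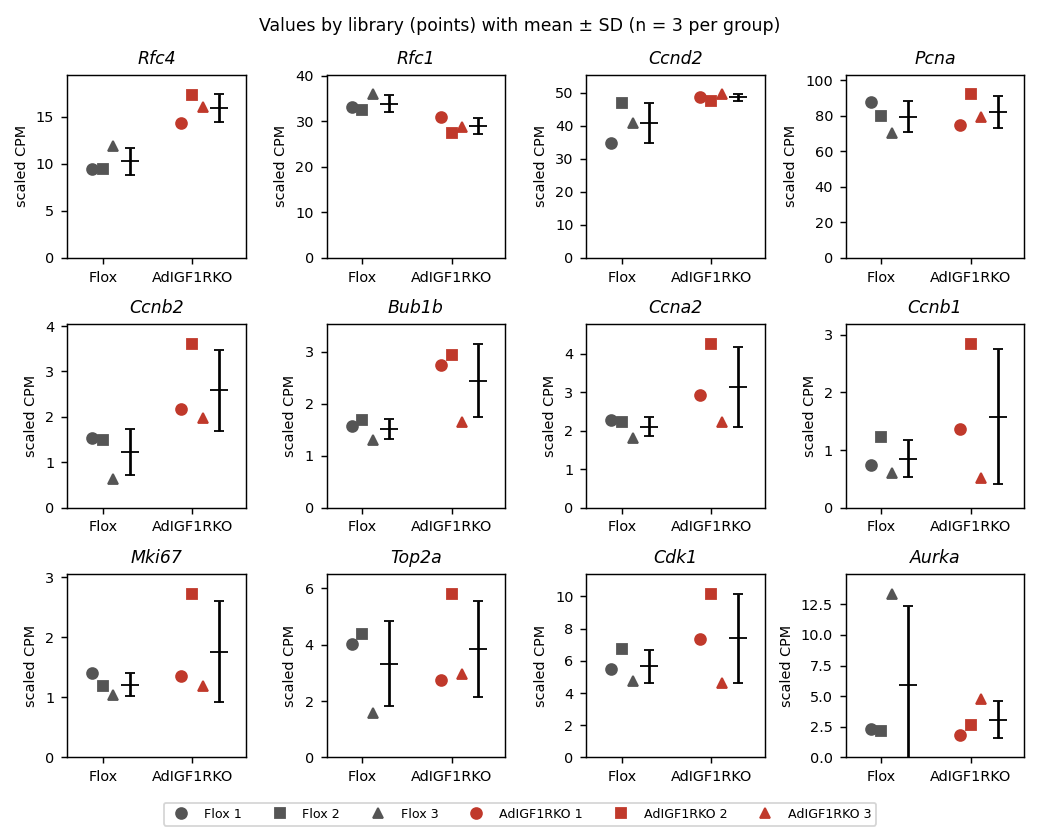
Scaled CPM (y axis, linear from 0) of 12 members in each library, Flox in grey and AdIGF1RKO in red, with the group mean and SD (n = 3) beside the points; the lower bar of Aurka in Flox is cut at 0. Rfc4, Ccnb2 and Ccnd2 are higher in AdIGF1RKO without overlap of the groups, and Rfc1 is lower without overlap. Mki67 and Ccnb1 stand out in AdIGF1RKO 2, and Aurka stands at 13.4 in Flox 3.

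Most mitotic genes had their highest value in the same library. Of the 14, 11 had their highest value in AdIGF1RKO 2, where 2974 of the 14861 genes in the table were highest. The count was also 11 with the values as deposited (945 of all genes) and with libraries scaled to equal sums (3717 of all genes). In AdIGF1RKO 2 the levels were 3.87 times the median of the other 5 libraries for Ccnb1, 2.34 times for Ccnb2, 2.28 times for Mki67, 2.06 times for the spindle motor gene Kif11 and 1.90 times for Birc5, which encodes survivin. Bub1, a kinase of the spindle checkpoint, was 1.48 times that median, and Cdc20, which activates the anaphase-promoting complex, 1.82 times. The 3 genes highest elsewhere were Aurka, Aurkb and Plk1, all mitotic kinases, while the kinase genes Cdk1 and Bub1 were highest in AdIGF1RKO 2, as was Bub1b. Flox 3 was the lowest library for 8 of the 14, against 26.1% of all genes. Of the 18 replication genes, 6 were highest in AdIGF1RKO 2 and 10 lowest in Flox 3, and of the 6 G1 genes 0 were highest in AdIGF1RKO 2.

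**Figure D4:**
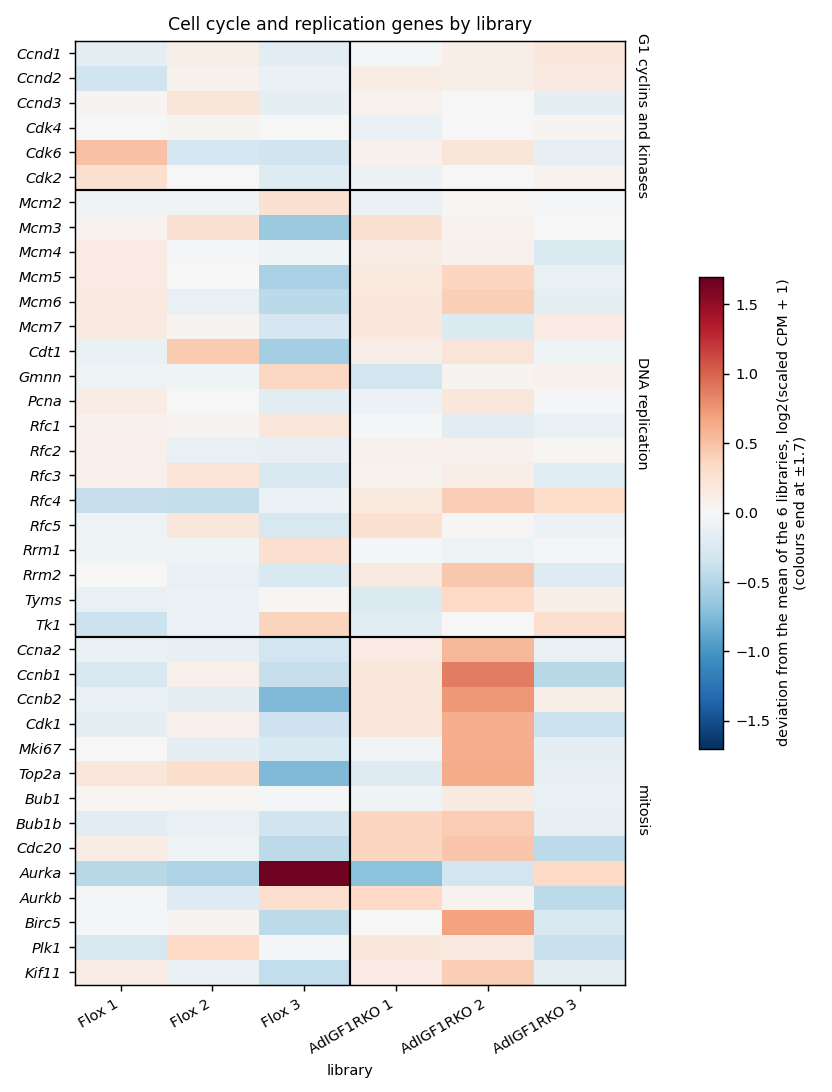
Deviation of each of the 38 members (rows) from its mean over the 6 libraries (columns), in log2(scaled CPM + 1), with red above and blue below the mean. In the AdIGF1RKO 2 column 13 of 14 mitotic and 15 of 18 replication rows are above their mean, by more than 0.4 in 10 mitotic and 3 replication rows, and the darkest cell is Aurka in Flox 3 at 1.66.

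The medians of the roles spread differently over the libraries. The median deviation of the 14 mitotic genes from their own means ran from -0.35 in Flox 3 to 0.52 in AdIGF1RKO 2, in log2(scaled CPM + 1). In Flox 1 and 2 it was -0.07 and -0.10, and in AdIGF1RKO 1 and 3 it was 0.16 and -0.15, so AdIGF1RKO 3 lay inside the Flox range. The labels give no shared litter or batch for libraries of the same replicate number. Within each number, AdIGF1RKO minus Flox had a mitotic median of 0.25, 0.55 and 0.06 for numbers 1 to 3. Of the 14 genes, 10, 13 and 8 were positive. AdIGF1RKO was higher within all 3 numbers for 6 of the 14, Ccna2, Ccnb2, Bub1b, Cdc20, Birc5 and Kif11, against 11.8% of all genes in the table. That count was 3 with the values as deposited (3.3% of all genes) and 8 with equal sums (22.6%). Of the replication genes, 4 of 18 were higher within all 3 numbers, Rfc4, Mcm5, Mcm6 and Rrm2, and Rfc1 was lower within all 3 (13.7% of all genes). With the values as deposited, 1 of the 18 was higher within all 3 numbers (3.3% of all genes) and 6 were lower (41.0%). With equal sums, 7 were higher (22.6%) and 1 was lower (5.38%). For the 18 replication genes the medians ran only from -0.16 in Flox 3 to 0.09 in AdIGF1RKO 1, with 0.07 in AdIGF1RKO 2. For the 6 G1 genes they ran from -0.18 in Flox 3 to 0.06 in Flox 2. As a group difference, 10 of the 14 mitotic genes were positive without the filter, with a median of 0.27 against -0.02 for all genes, of which 45.5% were positive. Without AdIGF1RKO 2, 9 of the 14 were positive and the median was 0.05. The replication median was 0.09 with it and 0.08 without it. These medians describe the lists and carry no test.

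AdIGF1RKO 2 was also the highest library for genes of macrophages that surround lipid. Of 10 markers of lipid-associated macrophages, all in the table, 9 were highest in AdIGF1RKO 2, and their median deviation was 1.27 there and -0.28 to -0.09 in the other 5 libraries. Mmp12, a secreted protease, was at 121 there and at most 13.3 in the others, and Trem2, a lipid-sensing receptor, was at 62.8 there and at most 12.1 in the others. The summed level of the 10 was 5841 in AdIGF1RKO 2, 4409 and 4950 in the other AdIGF1RKO libraries and 4160 to 5111 in Flox, a sum in which Lpl, which adipocytes also express, takes the most. General macrophage markers, 10 of 10 in the table, summed to 3440 in AdIGF1RKO 2, 2182 and 2473 in the other AdIGF1RKO libraries and 1895 to 2973 in Flox. Lyz2 takes the most of that sum, at 1901 in AdIGF1RKO 2 and 882 to 1406 in the others. Of these 10 markers, 6 were highest in Flox 1 and 4 in AdIGF1RKO 2, with median deviations of 0.25 and 0.24 in those libraries. B cell markers, 8 of 10 in the table (Cr2 and Fcer2a were not), summed to 9.37 in AdIGF1RKO 2 and 7.73 to 14.9 in the others. T cell markers, 10 of 10 in the table, summed to 19.4 in AdIGF1RKO 2 and were highest in Flox 1 at 37.0. Progenitor markers, 9 of 9 in the table, summed to 5227 in AdIGF1RKO 2 and 5036 to 6275 in the others, and endothelial markers, 8 of 8, to 597 and 511 to 676. Adipocyte markers, 10 of 10 in the table, summed to 47276 in AdIGF1RKO 2, the lowest of the 6, and 50813 to 65242 in the others. In that sum Cfd was at 9952 in AdIGF1RKO 2 and at 13073 to 20016 in the others. The median deviation of the adipocyte markers was -0.06 in AdIGF1RKO 2 and was lowest in Flox 3, at -0.15. Mammary epithelial markers, of which 2 of 8 were in the table, Krt18 and Elf5, summed to 4.78 in AdIGF1RKO 2, the highest, and 0.394 to 4.56 in the others. The erythroid marker Alas2, the 1 of 5 in the table, was at 24.1 there and at 12.1 to 48.6 in the others. All 8 endothelial markers had a positive group difference, with a median of 0.18, against 44.8% and -0.02 for all tested genes. All 10 markers of lipid-associated macrophages were positive too, with a median of 0.53. Positive differences were found for 4 of 10 general macrophage, 4 of 9 progenitor and 4 of 10 adipocyte markers. The part of these cells in the mitotic values was not tested.

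**Figure D5:**
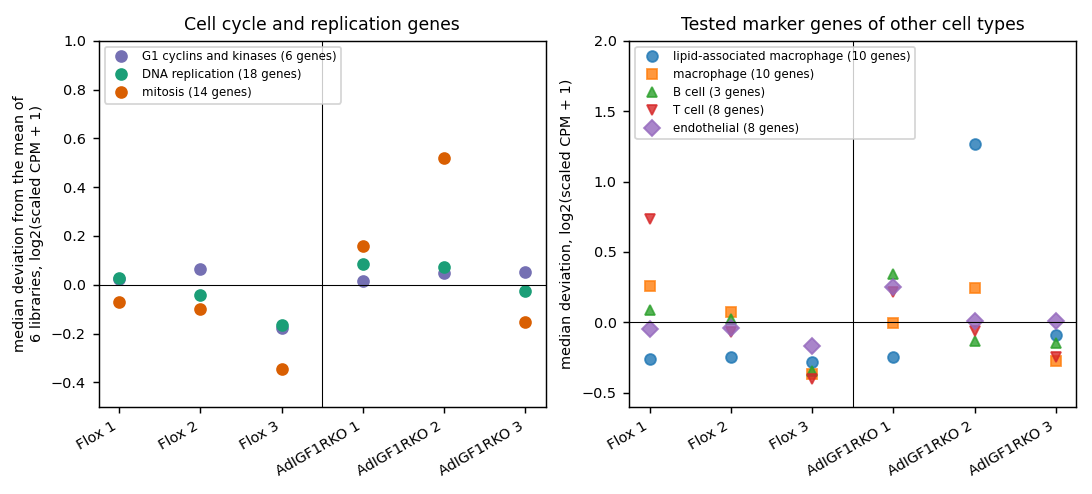
Median deviation from the mean of the 6 libraries (y axis, log2(scaled CPM + 1)) in each library, for the members by role (left) and for tested markers of other cell types (right). Mitotic genes stand at 0.52 and lipid-associated macrophage markers at 1.27 in AdIGF1RKO 2, while replication genes stay between -0.16 and 0.09 in all 6 libraries.

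Aurka, the aurora A kinase of the spindle pole, did not follow the other mitotic genes and was singled out after its values were seen. It had 2.29, 2.18 and 13.4 in Flox and 1.82, 2.69 and 4.77 in AdIGF1RKO, so that number 3 was the highest of each group. Flox 3 was 5.84 times the median of the other 5 libraries, and these 2 libraries were the ones richest in muscle markers. Aurka differed by -0.44 on the log2 scale (standard error 0.62), by 0.28 without Flox 3 and by -0.01 without both muscle-rich libraries. The part of muscle RNA in it was not tested. Aurkb, the aurora kinase of the chromosomal passenger complex, had 2.57, 2.11 and 3.42 in Flox and 3.57, 2.77 and 1.67 in AdIGF1RKO with overlapping groups. Plk1, the polo-like kinase, lay between 0.614 and 1.65 in all 6 libraries.

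Further mitotic and replication genes, listed by function with earlier results of these data known, were counted in the same fit. Of 60 further mitotic genes 59 were in the table (Troap was not) and 38 passed the filter. Of these 38, 0 had an unadjusted limma p under 0.05 in either direction (1.83% and 1.13% of all tested genes), and 4 of them, Kif20a, Pbk, Ect2 and Nuf2, passed the filter through AdIGF1RKO. Without the filter, 46 of the 59 had a positive difference with a median of 0.14, against 45.5% and -0.02 for all genes. In 28 of the 59 the highest library was AdIGF1RKO 2, against 2974 of the 14861 genes in the table. The smallest p-values were those of the mitotic kinesins Kif20b (log2 difference 0.57, standard error 0.27) and Kif20a (0.36, 0.19), the kinetochore gene Spc24 (0.35, 0.19) and the spindle factor Tpx2 (0.35, 0.20), none of which passed. Of 47 further replication genes, all in the table, 42 passed the filter, and without the filter 23 had a positive difference, 24 a negative one. Of these 42, 2 had an unadjusted p under 0.05 and were higher in AdIGF1RKO, and 0 were lower. Dck, which encodes a kinase that salvages deoxynucleosides, had 6.65, 8.35 and 7.89 in Flox and 8.78, 11.1 and 10.1 in AdIGF1RKO. Chaf1a, a subunit of the chromatin assembly factor behind the fork, had 1.98, 1.55 and 1.78 in Flox and 5.49, 2.02 and 3.72 in AdIGF1RKO. Neither Dck nor Chaf1a passed limma (adjusted p = 0.998), edgeR or DESeq2 after adjustment. They were the 2 of the 42 that were higher in AdIGF1RKO without overlap of the groups, against 4.41% of all tested genes. Another 2 of the 42 were lower without overlap, against 3.86%. Orc4, of the origin recognition complex, and Rpa3, of the protein that coats single-stranded DNA, had differences of 0.24 and -0.25 with overlapping groups.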

How the data were processed

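The values come from 1 deposited table, named FPKM, with 14861 genes and 6 libraries. In each library every deposited value was, within 0.5 of a deposited unit (the rounding of the table), a whole number of reads times a constant (100.0% of values), so the deposited signal is reads times a factor of the library, with no term for gene length. The lowest entry is 1 read and the table holds no 0. Libraries were stranded and polyadenylated, per the labels' protocols, and the build was GRCm39, per the submitters' processing notes. Aligner, counting tool and annotation: not given in the sources used here.

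Median-ratio size factors (0.731 to 1.17) turned recovered reads into scaled CPM, where 1 read is 0.0130 to 0.0207. Genes with a mean of at least 1 (12993 genes) entered a limma fit with a trend (limma 3.58.1 in R 4.3.3) of log2(value + 1), two-sided, with Benjamini-Hochberg adjustment over all tested genes and a threshold of 0.05. The log2(value + 1) scale understates changes of low genes. edgeR (version 4.0.16) and DESeq2 (version 1.42.0) on the recovered reads were alternatives, and the fits were checked on simulated data. With 3 libraries a group, the smallest two-sided p of an exact permutation test is 0.1. Where nothing says that libraries came from separate mice, p-values measure only the spread between these libraries. One further marker list is not reported here. Members, lists and tests were chosen with earlier results of these data known. Named were Igf1r, all 38 members, per-library values for Mki67, Top2a, Pcna, Ccnd1 and up to 5 members a role with the smallest p, and up to 4 genes from each further list. Cdk1, Aurka, Aurkb, Tk1 and the neighbours of Rfc4 were added after their values were seen.

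Between libraries of the same replicate number, deviations from the group means correlated at 0.347, 0.349 and 0.834 for numbers 1 to 3. Flox 1 correlated at 0.326 with AdIGF1RKO 2, and Flox 2 correlated more with AdIGF1RKO 1 (0.700) than with AdIGF1RKO 2. These correlations therefore do not pair numbers 1 and 2, and the libraries of number 3 are the 2 richest in muscle RNA. The labels give no shared litter or batch.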

Additional observations from a re-analysis of the deposited data

How the results depend on the processing

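No member passed at an adjusted p under 0.05 in any of the 19 other settings. Of 667 values of the 36 tested members under them, 651 moved by less than the gene's own spread within the groups. That spread can exceed the difference itself, so a move within it can change the sign. The sign changed for 11 of 36 members without Flox 3, 10 without both muscle-rich libraries, 9 with equal sums and 9 with array quality weights. It changed for 7 with the values as deposited, and for 0 with the replicate block or the muscle covariate. Over all genes the count at an adjusted p under 0.05 was 0 with limma, 23 with DESeq2 on recovered reads, and 0 to 1 when each library was left out in turn (1 without Flox 1). The count of members with an unadjusted p under 0.05 was 2 (2.96% of all tested genes), and it was 4 with array quality weights (6.6%). When each library was left out it was 1 to 5, with 1 without Flox 3 (3.34%), 1 without AdIGF1RKO 2 (1.86%) and 5 without AdIGF1RKO 3 (2.5%). With the replicate block it was 3, the addition being Bub1b (unadjusted p = 0.0472), no member passed after adjustment, and the block changed no call of a member. The replication median of 0.09 was -0.064 with the values as deposited and 0.20 with equal sums, and the G1 median of 0.03 was -0.10, 0.12 and, with array quality weights, -0.07. The median of all tested genes was -0.17 with the values as deposited and 0.09 with equal sums. The mitotic median of 0.28 over 12 tested genes ran from 0.05 (without AdIGF1RKO 2) to 0.51 (without AdIGF1RKO 3) and was 0.18 with the muscle covariate. Rfc4 had a difference of 0.44 with the values as deposited (unadjusted p = 0.0550), the lowest of its range up to 0.71, and there Rfc1 took its place among the 2 members (-0.38, unadjusted p = 0.0480). Counts over scalings of the highest library, and the medians without filter and AdIGF1RKO 2, were added after seeing the data, as were the counts within replicate numbers and those of the further lists without the filter. Mitotic genes with as few as 17 reads in a library limit what small differences can be detected at this depth.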

Other observations

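Inhibitors of cyclin-dependent kinases and regulators of the step from G1 to S phase were measured in the same fit. Of 7 inhibitor genes 6 were in the table and tested (Cdkn2a was not in it). Of these 6, 3 had a positive difference with a median of 0.05, against 44.8% and -0.02 for all tested genes. At an unadjusted limma p under 0.05 there were 0, against 1.83% of all tested genes higher and 1.13% lower. Cdkn2c, which encodes the Cdk4 and Cdk6 inhibitor p18, had 295, 328 and 295 scaled CPM in Flox and 333, 345 and 378 in AdIGF1RKO. It was the 1 of the 6 that was higher in AdIGF1RKO without overlap of the groups, against 4.41% of all tested genes. Its log2 difference of 0.20 (standard error 0.09) did not pass (limma adjusted p = 0.998). Cdkn1b, which encodes the inhibitor p27, had a difference of -0.17, Cdkn2d of -0.20 and Cdkn2b of 0.34, all with overlapping groups. Cdkn1a, which encodes p21, was highest in AdIGF1RKO 2 at 264, against 120 to 198 in the other 5 libraries.

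Of 25 regulators of the step from G1 to S phase, all in the table, 24 were tested. Without the filter 12 of the 25 had a positive difference, against 45.5% of all genes. Of the 24 tested, 0 had an unadjusted limma p under 0.05, against 1.83% of all tested genes higher and 1.13% lower. The E-type cyclins, which activate Cdk2, had opposite signs, with 0.36 for Ccne1 and -0.38 for Ccne2, and neither passed. Cdk7, the kinase that activates other cyclin-dependent kinases, had a difference of 0.15. Rbl2, which encodes the p130 protein of the DREAM repressor, had 34.3, 36.2 and 34.5 in Flox and 33.0, 30.02 and 33.0 in AdIGF1RKO. It was the 1 of the 24 tested that was lower without overlap, against 3.86% of all tested genes. Its log2 difference of -0.13 did not pass.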
